A study of Mus musculus with 25 samples.

Results

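The RNA content of sperm from the cauda epididymis was compared between FVB/N and C57BL/6J males that had not been exposed to bis(2-ethylhexyl) phthalate (DEHP), a plasticiser. The comparison rests on the conditions FVB.CTL.F1 and C57.CTL.F1, which are first-generation (F1) males aged 14 weeks whose mothers received corn oil vehicle by mouth from embryonic day 9 to 19. It takes in 10 of the 25 libraries of the study, 5 per condition, and 17086 of 24358 genes had a successful estimate in both conditions and at least 10 counts in 1 of them. The study also holds C57.D300.F1 and FVB.D300.F1, males of both strains after 300 mg/kg/day DEHP over the same days, and C57.D300.F2, the second C57BL/6J generation after that exposure. The C57BL/6J libraries of the first generation, 10 in all, are labelled as re-analysed from earlier work, whereas the other 15 were newly made. Strain and library set therefore cannot be told apart within the vehicle pair, and C57.D300.F2, the only C57BL/6J condition among the newly made libraries, is given beside the main results, although it also differs in exposure and generation. The deposited table gives 1 count per gene and condition, combined from the 5 libraries by Cuffdiff. The conditions are called vehicle and DEHP C57BL/6J, vehicle and DEHP FVB/N, and F2 C57BL/6J below. No spread between libraries could be computed, no test was possible, and each difference below has no replicate check. The table's only measure of error is the variance of each count under the Cuffdiff model. The square root of the summed variances of both conditions is called the model SD here. The authors collected the sperm by letting them swim out of the incised cauda, so their RNA stands beside any RNA of epididymal fluid, vesicles and other cells that came with them.

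Mature sperm make little or no new RNA. They carry RNAs left from spermatids, in which protamines replace histones and the flagellum, the acrosome and the sperm-type glycolytic enzymes are built. During transit through the epididymis they also take up small RNAs, among them microRNAs, from vesicles of the epithelium. A microRNA is a short RNA that is cut from a hairpin and pairs with target messages mainly through its seed, bases 2 to 8. RNAs with the same seed can pair with largely the same messages. In bulk RNA, fewer cells of a type and less RNA per cell cannot be told apart, so each value below is a share of the whole sample's RNA.

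Among 124 microRNA genes compared, 42 were lower in FVB/N, and several of these belong to families that share a seed. RefSeq (GRCm38.p6) gave mature sequences for 106 of the 124 and for 38 of the 42. Of 16 seeds found in at least 2 of the genes compared, 7 had every one of those genes lower in FVB/N. They cover 11 genes, beside a share of 33.9% lower among all 124 microRNA genes. Seeds of both arms of a hairpin were counted, so the 7 overlap in genes. AAGCUCG repeats Mir99a and Mir99b, and AAGUUCU repeats Mir148a and Mir148b, which other seeds among the 7 already cover. The sequences below, with the seed in capitals, are shown because they let the shared seeds be read directly. The counts are per hairpin gene, and which of its mature arms the reads came from is not known.

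The seed of the miR-10 family, from the microRNA genes with the highest counts in vehicle C57BL/6J, was held by these RNAs:
miR-10a-5p: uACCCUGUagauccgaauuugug
miR-10b-5p: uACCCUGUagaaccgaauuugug
The genes that carry the seed of the miR-99 and miR-100 family gave:
miR-99a-5p: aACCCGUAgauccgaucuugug
miR-99b-5p: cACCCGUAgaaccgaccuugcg
miR-100-5p: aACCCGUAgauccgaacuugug
The miR-27 genes gave:
miR-27a-3p: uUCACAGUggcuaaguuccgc
miR-27b-3p: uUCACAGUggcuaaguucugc
The miR-148 genes gave:
miR-148a-3p: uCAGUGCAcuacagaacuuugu
miR-148b-3p: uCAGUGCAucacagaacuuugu
The 3p arms of the miR-34b and miR-34c pair, which lie side by side on chromosome 9, gave:
miR-34b-3p: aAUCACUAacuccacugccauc
miR-34c-3p: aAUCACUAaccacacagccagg
A seed was not always shared in direction, as the following pair shows, since Mir141 was lower in FVB/N with a log2 ratio of -2.71 and Mir200a had a log2 ratio of 0.91:
miR-141-3p: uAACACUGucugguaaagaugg
miR-200a-3p: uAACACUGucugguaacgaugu

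A gene was counted as higher or lower when the log2 ratio of vehicle FVB/N to vehicle C57BL/6J, with 1 added to each count, was at least 2 in size. On this rule 246 genes, 1.44% of those compared, were higher in FVB/N and 1518, or 8.88%, were lower. Most of the table was close, with 12597 genes (73.7%) within 1 log2 unit and a median log2 ratio of -0.03 over all genes. The difference also exceeded the model SD in 227 of the higher and 1447 of the lower genes. Higher genes made up 13.9% of the called genes with the counts as deposited. This split turned to 96.9% when the summed counts of 5 lists of sperm genes were set equal, a scaling that multiplies FVB/N counts by 5.26 and moves the median of all genes to 2.35. Under it the medians of the sperm, microRNA, leukocyte and MHC lists lay above 0, at 0.10, 1.39, 1.23 and 1.50, while those of the liver and seminal vesicle lists stayed below. Directions below therefore hold relative to the bulk of the RNA and not per sperm. Equal totals moved the median of all genes to 0.13. Sperm markers such as the protamines were present in every condition, and so were RNAs of epididymal epithelium and leukocytes. The counts of the vehicle conditions summed to 7568129 in vehicle FVB/N and 8602899.5 in vehicle C57BL/6J.

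**Figure D1:**
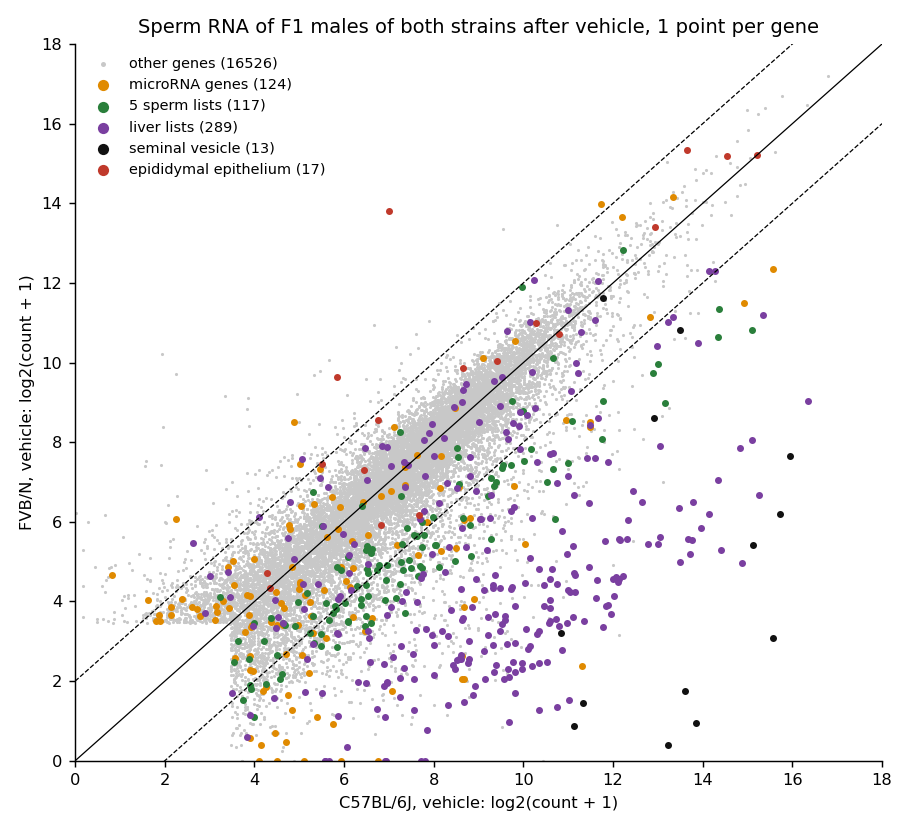
Each point is 1 of the 17086 genes compared, by its log2(count + 1) in vehicle C57BL/6J (horizontal) and vehicle FVB/N (vertical), with 1 condition value per gene and no error bar. The solid line marks equal counts and the dashed lines a log2 ratio of 2 in either direction. Most genes of the liver lists (violet), seminal vesicle (black) and 5 sperm lists (green) lie below the lower line, but not all of them. Many microRNA genes (orange) also lie below it, and few genes lie above the upper line.

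The same strains after DEHP gave a second reading from other libraries of the same 2 library sets. In DEHP FVB/N against DEHP C57BL/6J, 460 of 17377 genes (2.65%) were higher and 1332 (7.67%) lower. Among 16897 genes compared in both pairs, 1076 genes were lower in both, which is 72.4% of the 1486 lower in the vehicle pair and 83.9% of the 1283 lower in the DEHP pair. For higher genes 172 were shared, 73.8% of 233 and 46.5% of 370. Only 4 genes changed sides, all from lower to higher, and none went from higher to lower. In 1330 of the 1518 lower genes each of the 3 C57BL/6J conditions lay above both FVB/N conditions, and in 224 of the 246 higher genes each lay below both. The vehicle values chose these genes, so only the positions of the other 3 conditions are informative.

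RNAs of liver function were the lowest large group. The 13 liver lists, from plasma carriers to hepatocyte transcription factors, together held 289 genes compared, of which 210 were lower and 3 higher, with a median log2 ratio of -4.90 against -0.03 over all genes. They made up 9.26% of the counts in vehicle C57BL/6J and 0.817% in vehicle FVB/N. The share was 8.11% in DEHP C57BL/6J, 0.844% in DEHP FVB/N and 1.14% in F2 C57BL/6J, so the newly made C57BL/6J libraries lay near FVB/N and far from the re-analysed ones. Against F2 C57BL/6J the median log2 ratio of vehicle FVB/N was -0.90. The part of the library set in this group was not tested.

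The size of the ratio varied from one liver function to the next. Major urinary proteins, pheromone carriers made in liver, had a median log2 ratio of -8.70 with all 5 genes lower, although these near-identical copies share reads and their single values are uncertain. Plasma carrier proteins followed at -6.74 with 14 of 15 lower. Against F2 C57BL/6J these medians were -1.91 and -1.81. Lipoprotein genes had 16 of 19 lower at -6.13, coagulation and fibrinolysis 22 of 23 at -6.04, and bile acid synthesis and transport 14 of 15 at -5.78. Against F2 C57BL/6J these 3 medians were -1.08, -1.37 and -1.11. The urea cycle and amino acid catabolism list had 24 of 30 lower at -5.14, where Cps1, the entry enzyme of the urea cycle, had 20854 counts in vehicle C57BL/6J, 131 in vehicle FVB/N and 490.0 in F2 C57BL/6J. That list's median against F2 C57BL/6J was -1.03. Conjugating enzymes had the lowest share of lower genes among the liver lists, with 19 of 43 lower at a median of -1.59, which was -0.22 against F2 C57BL/6J.

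Cytochrome P450 genes showed both directions. Of 63 compared, 34 were lower and 3 higher, with a median log2 ratio of -2.80 that was -0.09 against F2 C57BL/6J. Cyp3a11, a drug and steroid hydroxylase of hepatocytes, had 13468 counts in vehicle C57BL/6J against 35.5 in vehicle FVB/N, and 133 in F2 C57BL/6J. Cyp2c39, Cyp46a1 and Cyp4a30b were the higher members. Cyp4a30b, an omega hydroxylase of fatty acids by family, had 189.9 counts in vehicle FVB/N and 201 in DEHP FVB/N, against 32.3, 23.2 and 72.7 in vehicle C57BL/6J, DEHP C57BL/6J and F2 C57BL/6J. Cyp46a1, the cholesterol 24-hydroxylase, had 68.3 and 73.1 counts in the same FVB/N order against 16.2, 13.5 and 15.7 in C57BL/6J. Both genes were thus above all C57BL/6J conditions, including the newly made one. Cyp2j13, whose log2 ratio of 1.82 stayed under the threshold, lay the same way with 4281 and 4258 counts against 1209, 939 and 1543.

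Some promoters of the liver genes held motifs that the comparison did not use. GTTAAT, a core that HNF1 factors recognise, searched on both strands of the 250 bases before the annotated start (RefSeq, GRCm38.p6), was found in 43 of 225 liver list promoters (19.1%) and in 553 of 12529 promoters of genes compared (4.41%). CAAAGTCCA, an HNF4 type site, was found in 5 of the 225 (2.22%) and in 51 of all (0.407%). GTTAAT was found in 8.89% of the promoters of genes called lower and 8.48% of those called higher, and CAAAGTCCA in 1.11% and 1.21%. The albumin promoter is shown as an example, on the plus strand at chr5:90460620-90460869, with the GTTAAT match that begins 32 bases before the start in capitals.
Alb: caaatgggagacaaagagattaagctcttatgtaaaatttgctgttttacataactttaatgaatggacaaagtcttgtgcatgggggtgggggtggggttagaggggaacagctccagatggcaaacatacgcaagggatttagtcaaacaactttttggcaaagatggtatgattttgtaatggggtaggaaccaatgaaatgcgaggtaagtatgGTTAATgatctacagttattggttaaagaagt
A match is a description of these letters and does not show that a factor binds. Alb itself, the main plasma protein, had 83529 counts in vehicle C57BL/6J and 524 in vehicle FVB/N, with a difference inside the model SD.

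Seminal vesicle RNAs, the second low group, set vehicle C57BL/6J apart from every other condition and not C57BL/6J from FVB/N. They made up 3.16% of the counts in vehicle C57BL/6J and between 0.0340% and 0.0751% in the other 4 conditions. In all, 12 of 13 were lower in vehicle FVB/N, with a median log2 ratio of -9.69. In the DEHP pair the median was 1.55. Svs5, a secretory protein of the gland, had 48670.3 counts in vehicle C57BL/6J, 1.86 in DEHP C57BL/6J, 54.2 in F2 C57BL/6J, 7.47 in vehicle FVB/N and 11.1 in DEHP FVB/N. For 9 of the 12 lower genes the difference lay within the model SD. In the lowest part of the gene table, A630095E13Rik followed the same course, with 1387 counts in vehicle C57BL/6J and at most 2.00 elsewhere. Prostate and coagulating gland genes, another accessory gland group, had no called member among 5.

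Sperm proper showed a smaller but more even shift. The 5 lists for sperm chromatin, tail, energy, ion channels and acrosome together held 117 genes compared, of which 69 were lower, none was higher by 2 log2 units and 111 had a ratio below 0. Their median log2 ratio was -2.16, and it was -1.73 in the DEHP pair and -1.39 against F2 C57BL/6J. Their share of the counts was 1.71% in vehicle C57BL/6J, 1.62% in DEHP C57BL/6J, 0.884% in F2 C57BL/6J, 0.366% in vehicle FVB/N and 0.386% in DEHP FVB/N. All 69 lower genes were above both FVB/N conditions in each C57BL/6J condition, as were 1330 of all 1518 lower genes. All 69 differences exceeded the model SD, as did 1447 of the 1518. The vehicle values chose these genes, so the order within the vehicle pair was given. The call itself also mostly brings the difference above the model SD. F2 C57BL/6J lay between the re-analysed C57BL/6J libraries and FVB/N, with a median log2 ratio to vehicle C57BL/6J of -0.78. How much of the shift goes with strain and how much with library set cannot be told apart.

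The tail list had 26 of 36 genes lower and a median log2 ratio of -2.22. Smcp (chr3:92583867-92588997), a cysteine-rich protein of the mitochondrial capsule, had 35149 counts in vehicle C57BL/6J and 31101 in DEHP C57BL/6J. It had 10099 in F2 C57BL/6J, 1799 in vehicle FVB/N and 1784 in DEHP FVB/N, so that the vehicle pair differed 19.5-fold and the newly made libraries 5.61-fold. Odf1, a protein of the outer dense fibres that stiffen the flagellum, went from 21227 to 2589 counts in the vehicle pair, with 7981 in F2 C57BL/6J. Odf2, a partner in the same fibres, went from 8150.3 to 1001 counts with 2709.6 in F2 C57BL/6J, and Oaz3, an antizyme found only in haploid male germ cells, from 9117 to 505 with 3179. Dnah8, a dynein heavy chain of the axoneme, had 2185 and 369 counts with 1073 in F2 C57BL/6J. The order of the conditions was the same in these 5 genes, with both re-analysed C57BL/6J conditions on top, F2 C57BL/6J next and both FVB/N conditions at the bottom.

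Prm2, Prm1, Pgk2 and Gapdhs kept that order. In the chromatin list 7 of 10 genes were lower, with a median log2 ratio of -2.36. Prm2, a protamine that compacts sperm DNA, had 20903 counts in vehicle C57BL/6J and 1584 in vehicle FVB/N, with 12610.3, 6651 and 2019 in DEHP C57BL/6J, F2 C57BL/6J and DEHP FVB/N. Prm1, the other protamine, had 1038, 1162, 707, 185 and 328 counts in vehicle C57BL/6J, DEHP C57BL/6J, F2 C57BL/6J, vehicle FVB/N and DEHP FVB/N. Among energy enzymes 13 of 19 were lower, at a median log2 ratio of -2.42. Pgk2, the phosphoglycerate kinase of late germ cells, had 3438 and 268 counts in vehicle C57BL/6J and vehicle FVB/N, and 1320.3 in F2 C57BL/6J. Gapdhs, the sperm form of GAPDH, had 1463 and 127, with 638 in F2 C57BL/6J. Slc2a3, a glucose transporter that other cells share, had the highest log2 ratio of the list at 1.94, with 999 and 3835 counts in vehicle C57BL/6J and vehicle FVB/N.

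**Figure D2:**
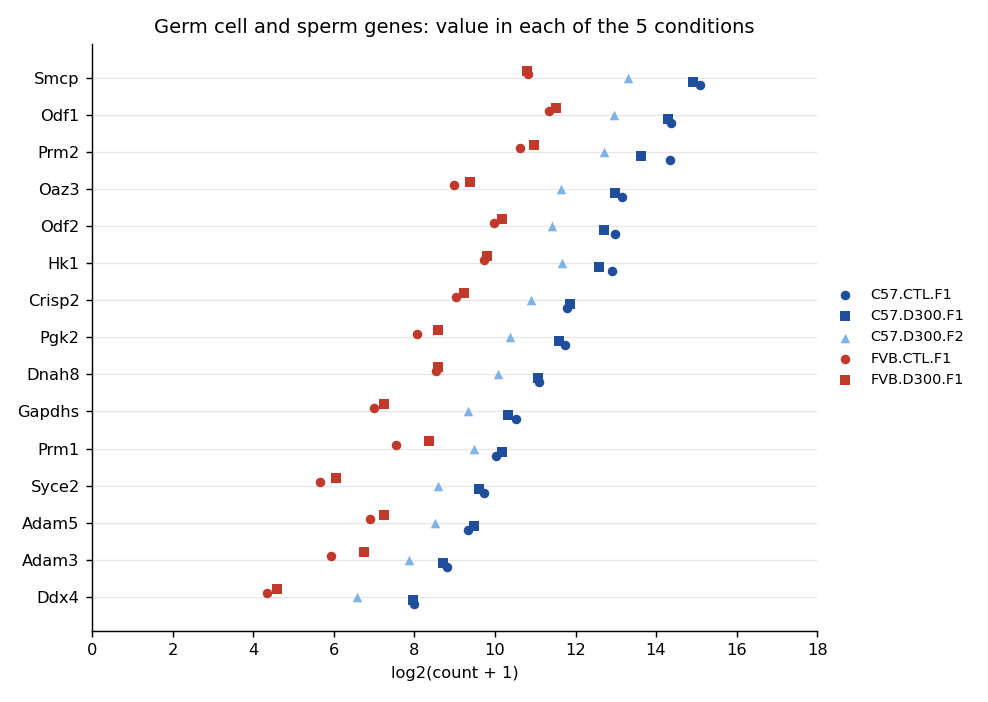
Each row is a germ cell or sperm gene and each symbol its log2(count + 1) in 1 of the 5 conditions (blue C57BL/6J, red FVB/N, circles vehicle F1, squares DEHP F1, triangles the second generation), with no error bar since there is 1 value per condition. Both red symbols lie at the low end of every row and the light blue triangle lies between them and the dark blue symbols, as for Smcp with 35149, 31101, 10099, 1799 and 1784 counts.

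Acrosome and egg-binding genes were lower in 17 of 36, with a median log2 ratio of -1.96. Crisp2, a secretory protein of the acrosome, had 3527 and 525 counts in vehicle C57BL/6J and vehicle FVB/N, and 1894 in F2 C57BL/6J. Adam3 and Adam5, membrane proteins of the sperm head, had log2 ratios of -2.89 and -2.44, and of -1.94 and -1.61 against F2 C57BL/6J. Izumo4 went the other way with a log2 ratio of 1.01, from 151 to 304 counts. Ion channel and pump genes were lower in 6 of 16 at a median of -1.82, where Adcy10, the soluble adenylyl cyclase that bicarbonate activates in sperm, had 266 and 41.9 counts with 151 in F2 C57BL/6J. Atp2b4, a calcium pump with many sites of expression, had 4754 and 7302 counts, a difference inside the model SD.

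RNAs of earlier germ cell stages were also below the table's median, but fewer passed the threshold. Of 20 meiosis genes 5 were lower, with a median log2 ratio of -1.04, and of 17 genes of the Piwi pathway, which protects the germ line from transposons, 5 were lower at -1.13. Syce2, of the synaptonemal complex, had 850.4 and 49.3 counts in vehicle C57BL/6J and vehicle FVB/N, with 384 in F2 C57BL/6J. Ddx4, the germ cell RNA helicase, had 252 and 19.1 counts with 93.7 in F2 C57BL/6J. The other lower members were Hormad2, Meiob, Smc1b and Syce1 for meiosis and Gtsf1, Mael, Piwil1 and Tdrd6 for the Piwi pathway. Mlh3, of crossover formation, and Stag3, a meiotic cohesin, stayed close at log2 ratios of -0.03 and 0.26. Replication-dependent histones, a group with a short RNA and no poly(A) tail, had 1 lower gene of 34, Hist1h2bg, and a median of -0.46.

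The lower microRNA genes kept their strain order in the newly made C57BL/6J libraries. The 124 genes had a median log2 ratio of -0.92 in the vehicle pair, -0.71 in the DEHP pair and -1.37 against F2 C57BL/6J. MicroRNA genes as a whole took 1.51% of the counts in vehicle C57BL/6J and 0.887% in vehicle FVB/N. Their share was closer in the DEHP pair, at 1.63% in DEHP C57BL/6J and 1.39% in DEHP FVB/N, and it was 2.73% in F2 C57BL/6J. All 42 lower genes (33.9% of those compared) lay above both FVB/N conditions in all 3 C57BL/6J conditions. So did 1330 of the 1518 lower genes of any kind. The gap was at least 4-fold in every pairing for 25 of the 42 and for 187 of the 1518. Among the 20 lower genes with at least 100 counts in vehicle C57BL/6J, the median count was 428 in vehicle C57BL/6J, 534 in DEHP C57BL/6J and 434 in F2 C57BL/6J. It was 38.4 in vehicle FVB/N and 64.1 in DEHP FVB/N. Both vehicle values chose these 20 genes, so only the medians of the other 3 conditions are informative. In 32 of the 48 microRNA genes called in either direction the difference exceeded the model SD.

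The miR-10 pair carried most of the microRNA counts in vehicle C57BL/6J. Mir10b (chr2:74726070-74726137, in the Hoxd cluster) had 48454 counts in vehicle C57BL/6J, 40273 in DEHP C57BL/6J, 88039 in F2 C57BL/6J, 5222 in vehicle FVB/N and 8195 in DEHP FVB/N. Mir10a (chr11:96317165-96317274, in the Hoxb cluster) had 31190.4, 28919, 35896, 2909 and 4199 counts in the same order. For both the vehicle difference lay within the model SD, yet all C57BL/6J values were several fold above both FVB/N values. Hox genes themselves had no called member among 30 and a median log2 ratio of 0.58, which was 0.04 against F2 C57BL/6J. Hoxb6, a neighbour of Mir10a, had 215 and 485 counts in vehicle C57BL/6J and vehicle FVB/N. Mir10b lies within the annotated span of Hoxd4, and how reads were shared between them is not given.

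Other seed families repeated the pattern to different extents. Mir27b had 409.9, 313, 400.5, 3.14 and 7.56 counts in vehicle C57BL/6J, DEHP C57BL/6J, F2 C57BL/6J, vehicle FVB/N and DEHP FVB/N. Mir34c, a microRNA of late male germ cells and ciliated epithelium, had 408, 543, 534, 13.7 and 12.7 in that order. In these 2 genes F2 C57BL/6J did not differ from the other C57BL/6J conditions by the size seen in the liver lists. The miR-99 family was lower in F2 C57BL/6J than in vehicle C57BL/6J, where library set, exposure and generation cannot be told apart. Mir100 had 395 counts in vehicle C57BL/6J, 55.2 in F2 C57BL/6J and 3.16 in vehicle FVB/N, and Mir99b had 1045, 259.6 and 42.7. Mir192, a microRNA of liver and gut, moved further, with 2535 counts in vehicle C57BL/6J, 698 in DEHP C57BL/6J, 93.0 in F2 C57BL/6J and 4.23 in vehicle FVB/N. Mir182 and Mir183, of 1 cluster on chromosome 6, had 285 and 199 counts in vehicle C57BL/6J against 37.3 and 35.0 in vehicle FVB/N, and 673 and 287 in F2 C57BL/6J.

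**Figure D3:**
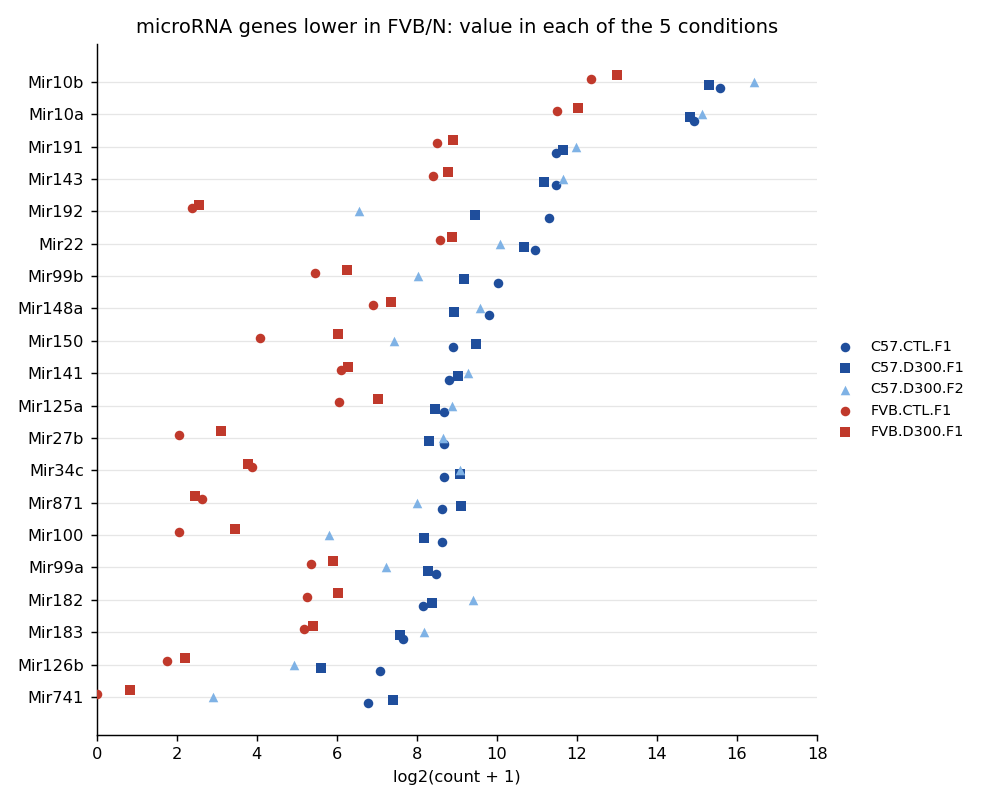
Rows are the 20 microRNA genes that were lower in FVB/N and had at least 100 counts in vehicle C57BL/6J. Symbols give log2(count + 1) in each of the 5 conditions, coloured as before, with no error bar. The blue symbols lie right of the red ones in every row, and the light blue triangle of the newly made C57BL/6J libraries lies among the dark blue ones for Mir10a, Mir10b, Mir27b and Mir34c but moves left for Mir192, Mir100 and Mir741.

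A window of the X chromosome, at 66000001 to 67000000, had 5 lower among its 7 genes compared of any kind. All 5 were microRNA genes, namely Mir465, Mir741, Mir743b, Mir871 and Mir881. MicroRNA clusters of this region are known for expression in the testis. Mir871 had 397, 548 and 256 counts in vehicle C57BL/6J, DEHP C57BL/6J and F2 C57BL/6J, against 5.18 and 4.52 in vehicle FVB/N and DEHP FVB/N. Mir465 was at 0 in both FVB/N conditions and at 16.3, 22.9 and 12.5 in C57BL/6J, which makes it at least 5.42-fold lower against a floor of 3 counts.

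Not every short RNA was lower. Of 112 small nucleolar RNAs, which guide chemical changes of ribosomal RNA, Snora24 and Snord123 were higher, while Scarna10 and Scarna3b were lower, with a median log2 ratio of 0.41, and their share of counts was 4.10% in vehicle C57BL/6J and 5.68% in vehicle FVB/N. Snora24, higher by 2.70, had 1722 and 11184 counts. Snord104 hardly differed, with 33771 and 36298. The microRNA genes higher in FVB/N were Mir8114, Mir6236, Mir664, Mir2137, Mir6238 and Mir196a-1. Mir8114 had 360.1 and 519 counts in vehicle FVB/N and DEHP FVB/N and 28.4, 7.37 and 4.46 in C57BL/6J, and its vehicle difference lay within the model SD.

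The RNase P family split between the strains. Rpph1, the RNA of the tRNA-trimming enzyme, had 12936 counts in vehicle C57BL/6J, 6703 in F2 C57BL/6J and 4641 in vehicle FVB/N, a log2 ratio of -1.48. Rprl3 (chr8:3803069-3803358), a similar gene, had 841 and 1210.3 counts in vehicle FVB/N and DEHP FVB/N and 3.75, 9.63 and 2.37 in vehicle C57BL/6J, DEHP C57BL/6J and F2 C57BL/6J. Rprl2, a further copy, had 18.2 and 33.1 against 2.00, 2.85 and 2.00. No C57BL/6J condition came near FVB/N for either copy. These genes resemble each other, all reads were mapped to the reference of C57BL/6J, and how reads were shared among the copies is not given, so the single values are uncertain.

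Immune genes were lower in part. Of 24 leukocyte genes 6 were lower and none higher, with a median log2 ratio of -1.14 that stayed at -1.08 against F2 C57BL/6J. Lyz2, the lysozyme of macrophages, had 3486 and 654 counts in vehicle C57BL/6J and vehicle FVB/N, and 1113 in F2 C57BL/6J. Outside the list, Ms4a1, which encodes the B cell antigen CD20, had 139 and 8.43 with 11.8 in F2 C57BL/6J, and Mir150, a lymphocyte microRNA, had 473 and 15.8 with 170.5. Cd52 did not follow, at 24861 and 32765 counts, and epithelium of the epididymis makes it too. The share of the list in all counts was 0.442% in vehicle C57BL/6J, 0.497% in vehicle FVB/N and 0.768% in F2 C57BL/6J, mostly through Cd52.

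Among major histocompatibility (MHC) genes, which present peptides to T cells, several separated the strains. FVB/N carries the q haplotype of this region and C57BL/6J, whose genome the reads were mapped to, the b haplotype. Of 28 genes compared 7 were lower and 1 higher. The median log2 ratio was -0.80 in the vehicle pair, -1.36 in the DEHP pair and -0.15 against F2 C57BL/6J. H2-Eb1, a class II chain, had 533, 1019.6 and 854 counts in vehicle C57BL/6J, DEHP C57BL/6J and F2 C57BL/6J against 6.46 in DEHP FVB/N, and its vehicle FVB/N count was 48.5-fold below that of vehicle C57BL/6J. H2-T22 and H2-T23, non-classical class I genes, had 85.5 and 332 counts in vehicle C57BL/6J and 74.1 and 214 in F2 C57BL/6J, against 5.65 and 37.4 in vehicle FVB/N. H2-Bl went the other way, with 62.9 and 86.0 counts in FVB/N against 0.220, 2.55 and 2.13 in C57BL/6J. In each of these 4 genes the strain and not the library set divided the 5 conditions. The part of sequence differences in mapping was not tested. H2-Q10, a class I gene secreted by liver, instead followed the liver lists, at 1619.9, 1176 and 41.9 counts in C57BL/6J and 70.4 and 62.2 in FVB/N.

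Muscle and stress genes were lower in smaller numbers. All 8 skeletal muscle genes had ratios below 0, with a median log2 ratio of -1.63 in the vehicle pair, -3.63 in the DEHP pair and -1.64 against F2 C57BL/6J, and Myh4, a fast myosin, was the called member with 1183 and 227 counts in vehicle C57BL/6J and vehicle FVB/N, and 719 in F2 C57BL/6J. Its log2 ratio of -2.37 was 0.01 with the sperm lists set equal. Smooth muscle genes had no called member among 14 and a median of -0.44. Immediate early genes, which switch on within minutes of a stimulus, had Fos and Fosb lower of 10, and a median of -1.16. Fos had 667 counts in vehicle C57BL/6J, 217 in DEHP C57BL/6J, 608 in F2 C57BL/6J, 145 in vehicle FVB/N and 68.9 in DEHP FVB/N. Fosb had 183, 23.2, 167, 39.8 and 23.6 in that order, so that its log2 ratio of -2.17 in the vehicle pair was 0.02 in the DEHP pair. Junb had 1053 counts in vehicle C57BL/6J, 450.4 in DEHP C57BL/6J, 628 in F2 C57BL/6J, 429 in vehicle FVB/N and 258 in DEHP FVB/N, so that DEHP C57BL/6J lay with FVB/N.

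Basic cell functions were close to even. Cytosolic ribosomal proteins had 1 lower gene of 82 and a median log2 ratio of -0.23, which was 0.12 against F2 C57BL/6J. That gene was Rpl10l, the form of the subunit made in male germ cells, at -2.52. The respiratory chain had 3 of 78 lower at a median of -0.53, which was 0.15 against F2 C57BL/6J. They were Cox7b2 and Cox8c, testis forms of cytochrome oxidase subunits, at -2.51 and -2.07, and Ndufs5, a subunit of complex I, at -2.02. Proteasome subunits had no called member among 39 and a median of -0.24. The 316 Zfp zinc finger genes had 2 higher members, Zfp174 and Zfp428, 2 lower ones and a median of 0.04. The lower ones, Zfp474 and Zfp541, are germ cell genes and had log2 ratios of -3.03 and -2.20. Housekeeping reference genes had no called member among 14 and a median of -0.31, with Ywhaz at 2142 and 2458 counts. Among the 15 genes with the most counts of each vehicle condition, 7 were in both groups. Of these Lars2, Rnf225, Gpx3 and Spink8 had log2 ratios of 0.41, 0.13, -0.32 and 0.00, while Malat1, Gas5 and Cuzd1 stood higher in FVB/N at 0.94, 1.02 and 1.02, under the threshold.

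RNAs of the epididymis, the duct that stores the sperm, were mostly a little higher in FVB/N. Of 17 epithelium genes 2 were higher and none lower, with a median log2 ratio of 0.64 in the vehicle pair, 1.70 in the DEHP pair and 0.36 against F2 C57BL/6J. Their share of counts was 1.03% in vehicle C57BL/6J, 1.98% in vehicle FVB/N and 1.69% in F2 C57BL/6J. Clu, a chaperone of epididymal fluid, had 12898 and 41657 counts in vehicle C57BL/6J and vehicle FVB/N and 32443 in F2 C57BL/6J, with a difference inside the model SD. Adam7, a sperm surface protein of the epididymis, and Spink8, a protease inhibitor, had log2 ratios of 0.64 and 0.00, both within the model SD. The called genes were Akr1b7 and Rnase9.

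Akr1b7 and Rnase9 differed from each other in where F2 C57BL/6J lay. Akr1b7 (chr6:34412334-34423142), an aldose reductase-like enzyme that clears aldehydes, had 14293 counts in vehicle FVB/N and 5954 in DEHP FVB/N. It had 127, 98.8 and 5508 counts in vehicle C57BL/6J, DEHP C57BL/6J and F2 C57BL/6J, so the newly made C57BL/6J libraries came close to DEHP FVB/N. Rnase9, a ribonuclease-like protein of epididymal fluid, had 797 and 2065 counts in FVB/N and 55.9, 67.1 and 149 in C57BL/6J. Ptgs2, the inducible cyclooxygenase, was placed like Akr1b7, at 10401 and 3227 in FVB/N and 748, 356 and 3276 in C57BL/6J.

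Beta-defensins, antimicrobial peptides that coat sperm, had 3 higher genes of 25 and a median log2 ratio of 0.59. The 3 genes, Defb22, Defb23 and Defb26, lie together on chromosome 2 between 152000001 and 153000000. Defb22 had 457 and 778 counts in vehicle FVB/N and DEHP FVB/N and 13.2, 3.99 and 77.1 in vehicle C57BL/6J, DEHP C57BL/6J and F2 C57BL/6J. Defb28, of the same cluster and high in every condition, had 17158 and 29213 counts in vehicle C57BL/6J and vehicle FVB/N, a difference within the model SD. Cystatins of the tract, protease inhibitors, had 2 lower genes of 3: Cst8 had 60.1 counts in vehicle C57BL/6J and 3.87 in vehicle FVB/N, but 95.0 in DEHP FVB/N and 24.6 in F2 C57BL/6J, and Cstl1 had 20.6 and 2.90. The list's median of -2.47 turned to 0.79 at a minimum of 100 counts, where Cst8 and Cstl1 drop out, and to 0.38 with no minimum.

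The 20 highest ratios held genes of several functions. In 14 of the 20 all 3 C57BL/6J conditions were at least 4-fold below both FVB/N conditions, against 70 of all 246 higher genes. These 20 were chosen by their vehicle ratios, which gave the gap within the vehicle pair. Aqp2 (chr15:99579055-99584547), the vasopressin-regulated water channel, had 1181 and 424 counts in FVB/N and 2.84, 2.56 and 8.39 in C57BL/6J, at least 394-fold higher in the vehicle pair. Umod and Slc34a1, other genes of the kidney list, did not reach the minimum count. Aqp6 and Faim2, beside Aqp2 within chr15:99000001-100000000, were also higher, at log2 ratios of 2.86 and 2.97. Aqp6 was low and less divided than Aqp2, with 22.3 and 43.7 counts in vehicle and DEHP FVB/N. It had 2.19, 8.56 and 9.94 in vehicle, DEHP and F2 C57BL/6J.

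Further genes with this clean division between strains code for secretory, signalling and membrane proteins. Chga, a protein of secretory granules, had 823 and 987 counts in FVB/N and 39.3, 17.6 and 57.2 in C57BL/6J. Sv2b, a synaptic vesicle protein, had 1064 and 988 against 50.0, 51.6 and 97.8. Mapk13, a stress kinase of the p38 group (chr17:28769297-28780233), had 1985 and 1682 against 101, 92.6 and 151, and Psca, a surface antigen of epithelia (chr15:74714839-74717069), had 591 and 548 against 30.1, 34.1 and 27.0. In all 4 no C57BL/6J condition came near either FVB/N value. Tmem27 (chrX:164088830-164118860), a partner of amino acid transporters, had 183 and 225 against 2.00, 1.54 and 1.49. Gdpd3, a phosphodiesterase of lipids, had 339 and 335 against 13.8, 16.5 and 16.4. Wt1os, an antisense RNA of the Wt1 locus on chromosome 2, had 574 and 956 against 9.09, 12.4 and 25.1.

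**Figure D4:**
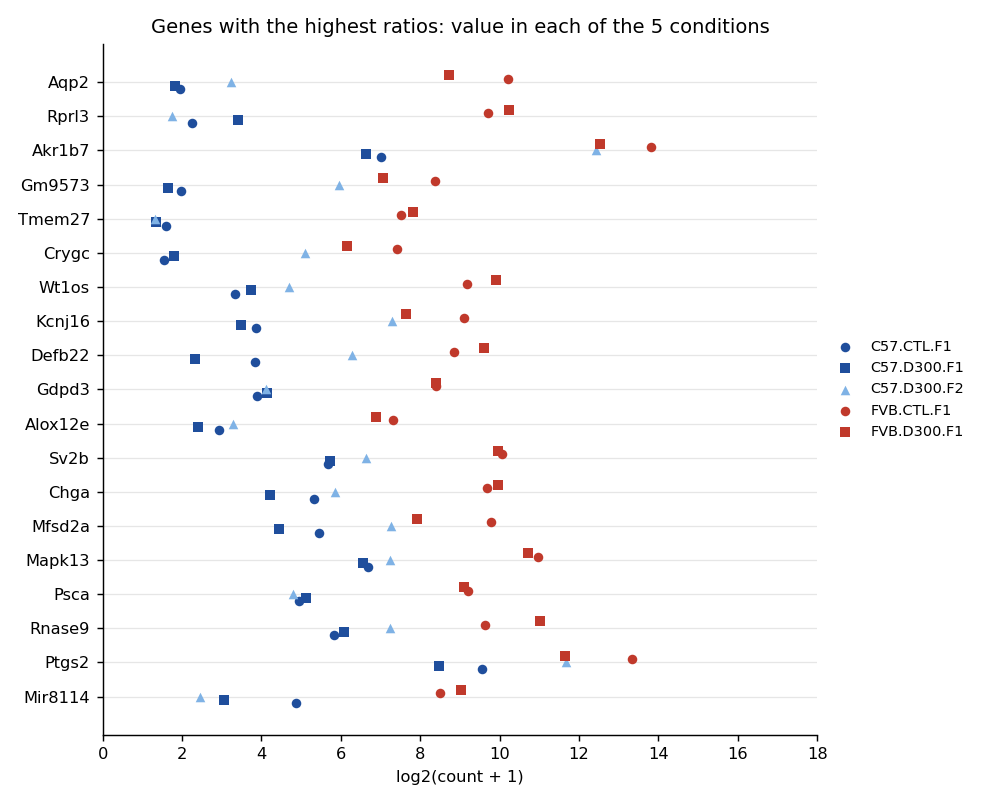
Rows are genes from the 20 highest log2 ratios among genes that reached 100 counts in either condition, from Aqp2 at the top, and symbols give log2(count + 1) in each of the 5 conditions with no error bar. The red FVB/N symbols lie right of the blue ones in every row except that of Ptgs2. The light blue triangle of F2 C57BL/6J comes near the red ones for Akr1b7, Ptgs2 and Kcnj16 and stays with the dark blue ones for Tmem27, Gdpd3, Psca and Rprl3.

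Keratins, of epithelia, had Krt4 and Krt79 higher among 16, with a median of 0.83 that was 0.51 against F2 C57BL/6J. Collagens had Col24a1 and Col6a6 higher among 41, with a median of 0.17 in the vehicle pair, -0.52 in the DEHP pair and -0.28 against F2 C57BL/6J, so the direction turned. Col1a1, the main collagen of connective tissue, was even at 8376 and 8399 counts in vehicle C57BL/6J and vehicle FVB/N, but its log2 ratio was -0.85 in the DEHP pair and -0.68 against F2 C57BL/6J. Esr1, an oestrogen receptor, hardly differed, with 539 and 498 counts in vehicle C57BL/6J and vehicle FVB/N and 767 in F2 C57BL/6J. Among Foxa factors, which open chromatin for such receptors, Foxa1 had 115 and 239 counts, Foxa2 59.1 and 16.7, and Foxa3 88.2 and 2.86. Foxa3 had 3.41 counts in F2 C57BL/6J and went with the liver lists, while Foxa1 had 219 there and lay with FVB/N. Ppara, the nuclear receptor that phthalate metabolites activate in liver, was lower at 607 and 67.3 counts, with 84.5 in F2 C57BL/6J.

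Genes known for alleles that differ among inbred strains gave a mixed check. Hc, complement C5, had 4298 counts in vehicle C57BL/6J and 23.6 in vehicle FVB/N, but also 92.5 in F2 C57BL/6J, so its course was that of the liver lists. Nnt, a mitochondrial enzyme with an exon deletion in C57BL/6J, had 306 and 296 counts, and a count over the whole gene does not show such a deletion. Tyr, the pigment enzyme, had 69.2 and 121, and Pde6b, of the retina, stayed under the minimum count.

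**Figure D5:**
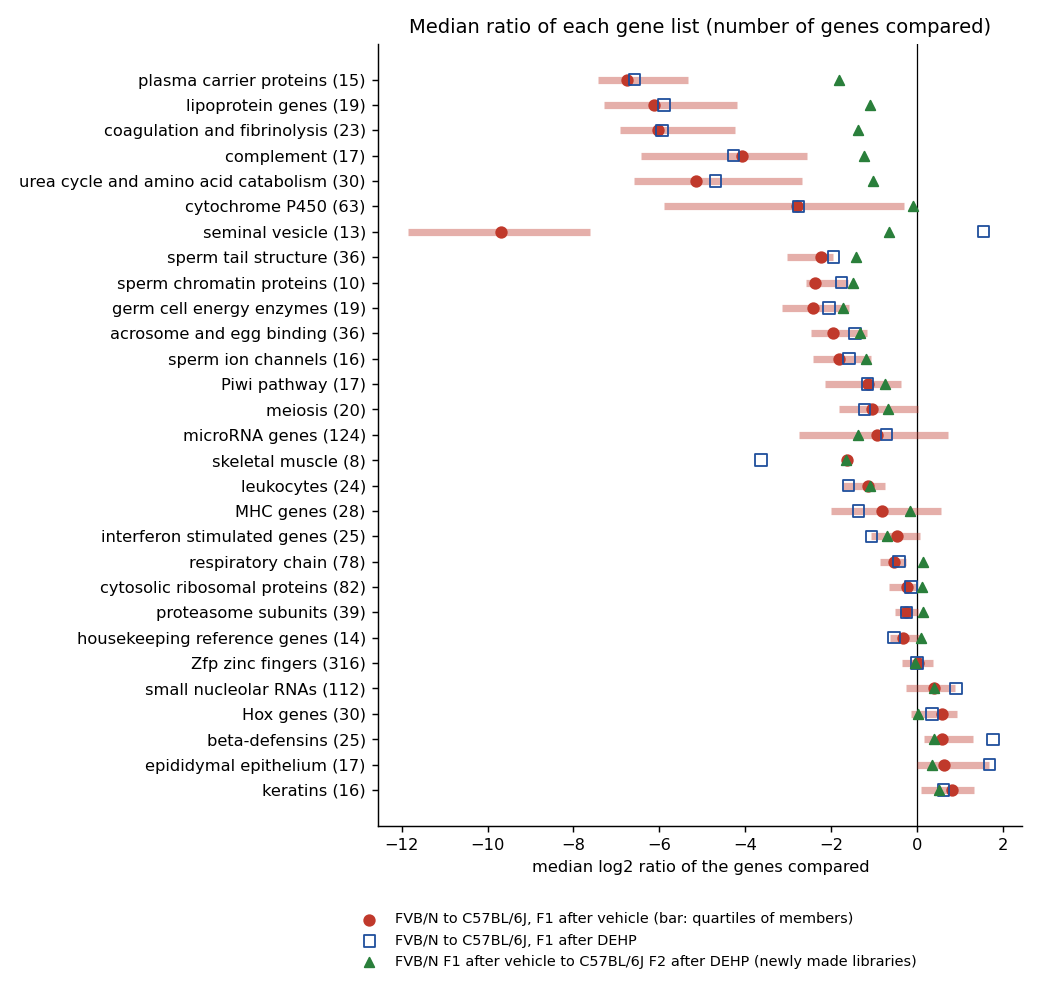
Points give the median log2 ratio of each gene list, with the number of genes compared in brackets: red circles for the vehicle pair with a bar between the quartiles of the members, open blue squares for the DEHP pair, and green triangles for vehicle FVB/N against F2 C57BL/6J. The first 5 liver lists sit at -4.08 or lower in both F1 pairs and at -1.81 to -1.03 for the triangles, the sperm lists sit between -2.42 and -1.19 for all 3, and the seminal vesicle list is far left in the vehicle pair alone.

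Kind and length of the gene moved with the calls. MicroRNA genes by annotation were lower in 35.6% (118 compared), snoRNA genes in 0.935% of 107, lincRNA genes in 9.64% of 384 and protein-coding genes in 8.73% of 15541. Among protein-coding genes those with 200 to 1000 exonic bases were lower in 27.2% and had a median log2 ratio of -0.71. The share fell with length to 2.81% in genes of 8000 bases or more, where the median was 0.07. Genes of 200 to 1000 bases were also more often higher, with 4.00% against 0.837% in the longest group. Of the 1518 lower genes 377 belong to at least 1 of the 59 lists, and of the 246 higher genes 31. The share of all genes compared that belong to a list was not computed. These counts therefore do not show whether list members were called more often than other genes.

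Position moved less. The share of lower genes per chromosome was 6.43% on X, where it was lowest, and 10.9% on chromosome 3, with only chromosome 6 above that. The share of higher genes ran from 0.445% on chromosome 8 to 2.05% on chromosome 6. Among windows of 1 Mb, the largest number of lower genes was 9 of 15, at chr12:103000001-104000000. This window holds the Serpina cluster, a family of protease inhibitors of liver, and Otub2 was also among the 9. The window of the Ms4a cluster at chr19:11000001-12000000 followed with 8 of 20, which include 1700025F22Rik, AW112010 and Gm8369. The window of the Ugt2b and Sult1 genes at chr5:87000001-88000000 had 8 of 12, which include Cabs1 and Ugt2a3. At chr9:106000001-107000000, 8 of 27 genes were lower, among them Iqcf1, Iqcf3, Iqcf4 and Iqcf5, calmodulin-binding proteins of the germ line. Iqcf4 had 455 counts in vehicle C57BL/6J, 30.0 in vehicle FVB/N and 149 in F2 C57BL/6J. The most higher genes in a window were 4 of 25, in the defensin window of chromosome 2.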

How the data were processed

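Cauda epididymal sperm RNA was sequenced in 5 libraries per condition. Per the labels and the study's methods, RNA was extracted with TRIZOL, depleted of ribosomal RNA, fragmented, treated with pyrophosphatase and kinase and made into small RNA libraries, and the submitters' processing notes name CASAVA 1.8.2, TopHat, Cufflinks, Cuffdiff and the mm10 build. Per the study's methods, TopHat mapped the reads with a strand-specific library setting. The annotation release and the Cuffdiff options are not given in the sources used here. The deposited signal values are scaled fragment counts, 1 per gene and condition, which the authors obtained by combining the 5 libraries in Cuffdiff. The deposited score values are the variances that the authors' Cuffdiff model assigned to these counts. The read depth of single libraries therefore cannot be read from these values, and no interval or test was computed. The study reports read statistics of the mapping separately, and they were not used here. Strain, exposure and generation were taken from the labels.

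Genes with a successful estimate in both conditions and at least 10 counts in 1 of them were kept. The log2 ratio was taken after adding 1 to both counts, and a size of at least 2 was called. A fold against a value under 3 counts was computed against 3 and written as at least. Gene lists of 59 functions and cell types were described by counts and medians. The members and lists were chosen with earlier results of these data known. Genes were named when they were among the 20 highest or 20 lowest ratios that reached 100 counts in either condition, among the 5 members of a list with the highest counts or called against their list's median, among the 15 highest counts of a condition, in the strain list, in a described window of 1 Mb, or Foxa1, Foxa2, Foxa3 or Esr1. A few genes that this rule names are not reported here. H2-Eb1, H2-T22, H2-T23, Rprl2, Snora24 and Snord123, the few called members given for the other lists outside this rule, and the microRNA genes of the seed families, with Mir150, Mir182, Mir183 and Mir200a, were chosen after their values were seen, as was the microRNA window of the X chromosome. Positions come from GENCODE M21 on GRCm38 (mm10), and microRNA, promoter and motif sequences from RefSeq on GRCm38.p6. The calculation used Python 3.11.15, numpy 2.4.6, pandas 2.3.3 and matplotlib 3.10.9 and was tested on simulated data. Other scalings, added constants, minimum counts and thresholds were tried.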

Additional observations from a re-analysis of the deposited data

How the results depend on the processing

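No paired analysis was possible because the deposited table holds 1 value per condition, combined from the 5 libraries, and leaving out single libraries was not possible for the same reason. Setting the summed counts of the 5 sperm lists equal changed most results: 11198 genes were then higher and 359 lower, and the list medians became -2.63 for liver, -7.33 for seminal vesicle, 3.04 for epididymal epithelium, 2.16 for ribosomal proteins, 2.81 for small nucleolar RNAs, 1.39 for microRNA genes, 1.23 for leukocytes and 1.50 for MHC genes. Under that scaling, by its construction, the sperm lists together stood at 0.10, sperm chromatin at 0.01 and the sperm tail at 0.13, and the log2 ratios of genes called near the threshold crossed 0, to 0.01 for Myh4, 0.02 for Scarna3b, 0.15 for Zfp541, 0.19 for each of Fos, Fosb and Mir881, 0.21 for Piwil1, 0.25 for Cox8c, 0.27 for Scarna10, 0.28 for Smc1b and 0.32 for Ndufs5. Adding 10 counts gave 103 higher and 997 lower genes, with medians of -3.73 for liver and -8.24 for seminal vesicle. A minimum of 100 counts gave 98 and 941, with medians of -5.41 for liver, -1.86 for microRNA genes and 0.79 for cystatins. Without a minimum the medians were -3.49 for liver, 0.00 for microRNA genes and 0.38 for cystatins, as more genes of low count entered. A threshold of 1 log2 unit gave 1282 and 3207 genes. Apart from the sperm scaling, 1611 list medians, gene ratios and counts of genes were recomputed. Of these, 1505 stayed within 0.5 log2 units or, for counts of genes, within 1.5 times. A turn of direction was counted only for log2 values that were at least 2 in size before the change. There were 2 such turns, both for the cystatins, and changes of sign in smaller values were not counted. The cause of the other changes was not tested. The spread between libraries, and so the precision of each value, is not known.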

Other observations

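Gene groups beside those described above gave a few further values. Wfdc21, of the WFDC protease inhibitors, followed the course of the liver lists, with 990.3 and 331 counts in vehicle and DEHP C57BL/6J, 8.47 in F2 C57BL/6J and 6.25 and 3.23 in vehicle and DEHP FVB/N. Fabp2, a fatty acid binding protein of the intestine, went the same way, with 181, 71.1, 7.70, 1.13 and 2.04 counts in that order. Most of the 1120 olfactory receptor genes were too low to compare. Of the 15 compared, Olfr851 had 39.6, 95.8, 218, 236 and 378 counts in the same order, so that F2 C57BL/6J lay with FVB/N. Vmn2r98, a vomeronasal receptor, had 3.01, 8.04, 27.7, 63.3 and 151, which placed F2 C57BL/6J between the other C57BL/6J conditions and FVB/N.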
